A study of Mus musculus with 23 samples.

Results

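Ribosomes are built in the nucleolus, and 50 mouse genes for this work were followed through oocyte growth arrest, fertilisation and the first cleavage, with and without maternal CFP1. The 50 genes were chosen by symbol from the 24506 entries of a deposited FPKM table (fragments scaled to the length of the transcript and the size of the library). All 50 were listed, and all 50 were among the 13776 genes tested. They comprised 6 genes of RNA polymerase I, 3 of the box C/D and 4 of the H/ACA small nucleolar ribonucleoproteins, 4 nucleolar scaffold or chaperone genes, 16 of the small subunit processome, 4 of late small subunit maturation and 13 of large subunit assembly.

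The libraries came from mouse germinal vesicle (GV) oocytes, which are grown oocytes held before meiotic maturation, from zygotes and from 2-cell embryos. Cxxc1 encodes CFP1, a CpG-binding subunit of the SET1 complexes that methylate histone H3 at lysine 4. The libraries of 4 groups carried no deletion: GV oocytes of wild-type females aged 3 weeks, GV oocytes of wild-type females aged 3 months, and zygotes and 2-cell embryos of wild-type females and wild-type males. The others came from GV oocytes of Cxxc1 fl/fl;Zp3-Cre females aged 3 weeks, from GV oocytes of Cxxc1 fl/fl;Gdf9-Cre females aged 3 months, and from zygotes and 2-cell embryos of Cxxc1 fl/fl;Zp3-Cre females and wild-type males. There were 2 libraries of wild-type 2-cell embryos and 3 of every other group, 23 libraries over 8 groups. Both Cre drivers act in oocytes, Gdf9-Cre from an earlier follicle stage than Zp3-Cre, so the deletion is maternal and embryos still receive an intact paternal allele. The labels give no strain, no age for the mothers of embryos, no statement on whether wild-type females carried floxed alleles, and no word on whether the libraries within a group are from different animals. All p-values therefore measure the spread between these libraries, which may be technical.

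In the nucleolus, RNA polymerase I transcribes the ribosomal RNA precursor. Small nucleolar ribonucleoproteins modify it, the small subunit processome cleaves and folds the small subunit part, and a chain of assembly factors matures the large subunit. In the mouse, transcription is silent in the fully grown oocyte, maternal RNA is cleared during maturation and after fertilisation, and the main wave of embryonic genome activation falls at the 2-cell stage, when active nucleoli begin to form again.

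Read depth is unknown, because FPKM does not keep the counts. The FPKM columns summed to 295901 to 420415, and 8663 to 12333 genes reached 1 FPKM. Cxxc1 itself was at 37.9 to 41.5 FPKM in 3-week wild-type oocytes and 35.7 to 38.5 at 3 months, against 0.893 to 1.49 with Zp3-Cre and 0.698 to 1.10 with Gdf9-Cre. In zygotes it was at 24.0 to 30.7 in wild type and 1.11 to 1.61 in the deletion group. In 2-cell embryos it was at 9.94 and 11.0 in wild type and at 1.17, 0.626 and 4.16 in the deletion libraries 1 to 3. The summed level of 8 oocyte markers was 7818 to 7938 FPKM in 3-week wild-type oocytes, and the summed level of 7 markers of the 2-cell stage was 184 to 242 in wild-type 2-cell embryos against 2.23 to 3.23 in wild-type zygotes. In deletion 2-cell embryos that second sum was 30.9 to 37.3, against 1.92 to 3.97 in deletion zygotes. The deletion 2-cell libraries thus carried the 2-cell markers above the zygote level but not at the wild-type 2-cell level. Gdf9-Cre oocytes had a similar sum, 30.8 to 40.6, with a different make-up. Gm4340 was at 16.6, 12.5 and 10.1 FPKM in the deletion 2-cell libraries and at 0.0299, 0.166 and 0.0168 in those oocytes. Zscan4d was at 3.23, 3.39 and 7.13 against 18.2, 14.5 and 8.79 FPKM. Deletion 2-cell library 3 stood apart. It correlated with its 2 replicates at r = 0.942 and 0.936 across tested genes, against 0.983 between those 2, it had 12333 genes at 1 FPKM or more against 10481 and 10187, and 4 fibroblast markers summed to 134 FPKM in it against 2.71 and 3.66. For the 50 genes, 3 total counts are therefore given with and without it. They are the calls against wild-type 2-cell embryos, the change from the deletion zygote, and the difference between genotypes in that change. Other counts that use the deletion 2-cell embryos include library 3, as do the folds and means of single genes. Where single libraries are printed, library 3 is the last value of the 3.

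In wild-type oocytes the 50 genes were abundant as a group. FPKM is scaled to transcript length, so levels can be compared between genes on that scale. In the 3-week wild-type oocytes the median over the 50 genes lay between 21.6 and 22.6 FPKM in the 3 libraries, 49 of the 50 had a mean of at least 1 FPKM and 39 a mean of at least 10. Npm1, which encodes the nucleolar chaperone nucleophosmin, was the highest at 357, 374 and 350.2 FPKM. Its level is uncertain because it has near-identical processed copies in the genome whose reads could have been shared. Bms1, a GTPase of the small subunit processome, followed at 289, 299 and 302 FPKM, and these 2 genes did not overlap. Next came Noc4l, a processome factor, at 133, 127 and 125 FPKM and Emg1, an rRNA methyltransferase, at 123, 123 and 122 FPKM, which did not overlap in these libraries either. Ncl, the major nucleolar RNA-binding protein nucleolin, was at 101, 102 and 105 FPKM. At the low end stood Nop16, a large subunit assembly factor, with 0.738, 0.947 and 0.760 FPKM, and Rrs1, which takes part in large subunit assembly with the 5S RNA, with 1.48, 1.78 and 1.65 FPKM. The 6 genes of the polymerase I machinery were between 3.84 FPKM on average for Polr1b, the second subunit, and 19.3 for Rrn3, the initiation factor that carries the polymerase to the promoter.

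From the wild-type GV oocyte to the wild-type zygote most of these transcripts fell. With limma on log2(FPKM + 1), at a Benjamini-Hochberg adjusted p under 0.05 over all 13776 genes, 44 of the 50 genes fell and 3 rose, where 50.7% of all genes tested fell and 19.4% rose. Over the 50 the median log2 fold change was -1.90, against -0.47 over all genes. Because FPKM is relative to the library total, a smaller mRNA content per embryo and a changed composition cannot be told apart, nor can less RNA per cell from fewer cells. Under median-of-ratios scaling the count was 35 fallen and 7 risen with a median of -1.13. Under quantile normalization it was 38 and 7 with a median of -0.96. Here and below, unless stated otherwise, shares over all genes tested come from the fit without further scaling. They are no background for counts under other scalings. Every log2 fold change is a difference of log2(FPKM + 1) and so is too small for genes with low values, whereas a value such as 2.42-fold is a plain ratio of mean FPKM.

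Genes of rRNA modification showed some of the deepest falls. Emg1 went from 123, 123 and 122 FPKM in the oocyte libraries to 2.84, 2.88 and 4.55 in the zygotes (log2 fold change -4.83 ± 0.17, SE, adjusted p = 4.50e-15). Nop56, a core protein of the box C/D particle, went from 49.1, 41.9 and 42.5 to 1.20, 1.33 and 0.592 FPKM (log2 fold change -4.49 ± 0.25, SE, adjusted p = 2.16e-12). Fbl, the box C/D methyltransferase fibrillarin, went from 29.7, 34.6 and 31.2 to 7.51, 3.08 and 6.62 FPKM (log2 fold change -2.35 ± 0.23, SE, adjusted p = 1.32e-08), so groups did not overlap for any of these 3 genes, where 55.4% of all genes tested were lower with no overlap. Nop58, the partner of Nop56, fell 9.73-fold. Within the H/ACA particle, which makes pseudouridine, Nhp2 fell 31.8-fold and Nop10 5.03-fold. Dkc1, its pseudouridine synthase dyskerin, fell 2.26-fold, while Gar1 rose from 43.3 ± 2.97 to 60.9 ± 2.45 FPKM (SD, n = 3, adjusted p = 7.05e-04).

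All 6 polymerase I genes were called lower, 4 of them also under each of the other scalings. The ratios were 9.60-fold for the subunit gene Polr1e, 6.60-fold for Polr1a, which encodes the largest subunit, 6.49-fold for Polr1b, 6.41-fold for Ubtf, the upstream binding factor of ribosomal DNA, 2.42-fold for Polr1c, a subunit shared with polymerase III, and 1.88-fold for Rrn3. Polr1c went to -0.32 with median-of-ratios scaling and 0.09 with quantile normalization, with no call. For Rrn3 the log2 fold change of -0.87 became -0.02 with median-of-ratios scaling and 0.12 with quantile normalization, and neither passed the test. In the small subunit processome 15 of 16 genes fell, against 11 with median-of-ratios scaling and 13 with quantile normalization. Nop14 went from 18.1, 19.1 and 18.3 to 0.517, 0.693 and 0.602 FPKM (log2 fold change -3.61 ± 0.14, SE, adjusted p = 2.06e-14). Heatr1, a subunit of the part of the processome that joins the nascent transcript, fell 11.8-fold. Utp15 was at 12.6 ± 0.310 and 12.8 ± 2.54 FPKM, a difference that did not pass the test, but it was called higher under both other scalings (0.85 and 0.96). Utp20, a large scaffold protein, was called lower at -0.32 but was higher, at 0.55 and 0.59, under the 2 other scalings. In large subunit assembly 10 of 13 genes fell, and Rrs1 and Brix1 had no call here. Rrs1 was higher under both other scalings (1.41 and 1.65), and Brix1 with median-of-ratios scaling (0.58). Ftsj3, a methyltransferase of the large subunit precursor, went from 71.7, 69.1 and 74.1 to 4.02, 3.12 and 2.95 FPKM (log2 fold change -4.06 ± 0.13, SE, adjusted p = 8.87e-16), and Noc2l, which works as a dimer in pre-ribosome transport, fell 42.3-fold. Nip7 rose from 3.96, 4.76 and 4.44 to 13.0, 18.1 and 11.7 FPKM (log2 fold change 1.48 ± 0.17, SE, adjusted p = 1.41e-07), with no overlap between the stages, where 21.7% of all genes tested were higher with no overlap. Nob1, the nuclease that makes the final cut of small subunit rRNA, fell 6.07-fold. Pno1, its partner, was 1.92-fold lower, a call lost under both other scalings (-0.025 and -0.080), and Tsr1 lost it or turned (0.16 and 0.55). Nop16 was listed at 0 in all 3 wild-type zygote libraries. The wild-type zygote mean was 17.9% of the oocyte mean at the median over the 50 genes.

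Between the wild-type zygote and the wild-type 2-cell embryo the direction turned. Of the 50 genes, 44 rose and 3 fell, where 44.5% of all genes tested rose and 24% fell. The median was 2.43 over the 50 and 0.31 over all genes on the log2 scale, with 39 risen, 6 fallen and a median of 2.03 with median-of-ratios scaling, and 39, 5 and 1.71 under quantile normalization. This comparison shares the wild-type zygote libraries with the previous one, so the pair of directions does not come from independent samples. The per-library median of the 50 genes was 6.45, 3.76 and 5.25 FPKM in wild-type zygotes and 43.1 and 35.5 in wild-type 2-cell embryos, so the stages did not overlap. Their share of the summed FPKM went from 0.274 to 0.289% to 0.764 to 0.797%.

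**Figure D1:**
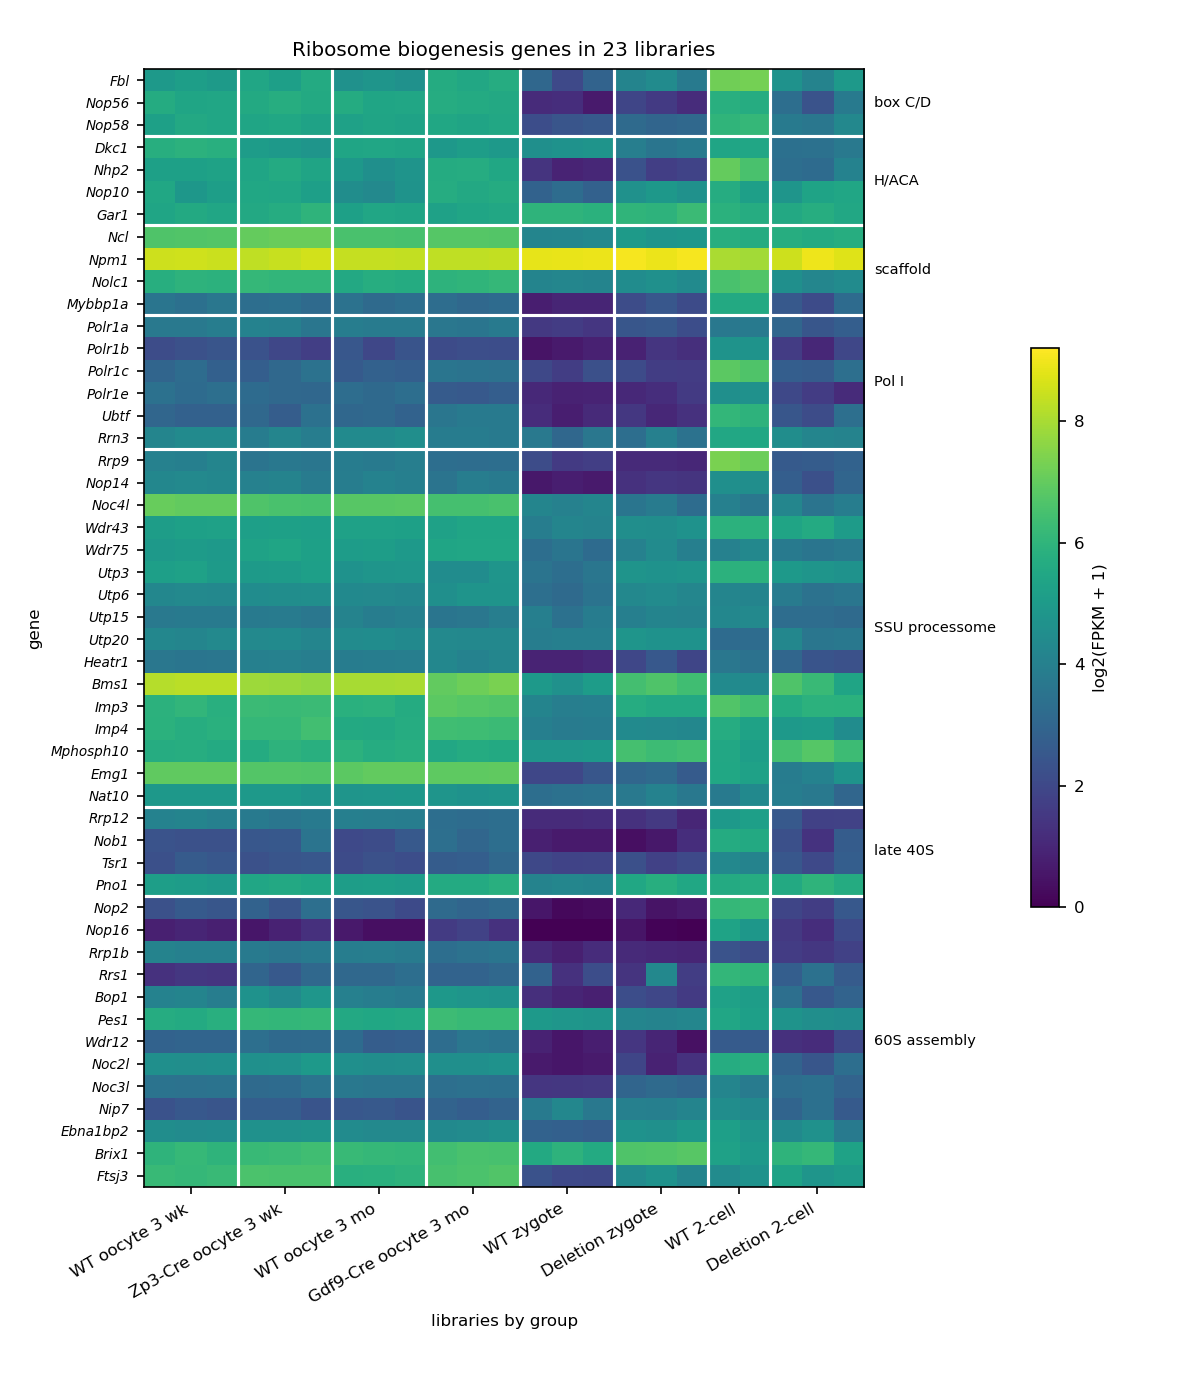
Level of the 50 genes (vertical, by role) in each of the 23 libraries (horizontal, by group), with log2(FPKM + 1) as colour from dark for low to yellow for high. Most genes are dark in wild-type zygotes and bright in wild-type 2-cell embryos, and Npm1 is the highest gene in every library.

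The rise was steepest for some genes that had been nearly absent in the zygote. Nop2, the methyltransferase of large subunit rRNA, was at 0.458, 0.143 and 0.207 FPKM in the zygotes and at 69.6 and 73.2 in the 2-cell embryos (log2 fold change 5.84 ± 0.25, SE, adjusted p = 8.18e-14). Nhp2 was at 1.61, 0.866 and 1.04 and then at 128 and 92.2 FPKM (log2 fold change 5.68 ± 0.22, SE, adjusted p = 2.42e-14). Rrp9, which binds the U3 small nucleolar RNA, was at 3.46, 1.95 and 2.25 and then at 163 and 138 FPKM (log2 fold change 5.43 ± 0.14, SE, adjusted p = 1.14e-16). These 3 genes showed no overlap between the stages, where 49.6% of all genes tested were higher with no overlap. Noc2l rose 96.8-fold, Ubtf 62.4-fold and Nob1 74.7-fold. All 6 polymerase I genes rose, with 43.0-fold for Polr1b, 36.2-fold for Polr1c, 6.36-fold for Polr1a and 4.29-fold for Rrn3. All 3 box C/D genes rose, with 51.3-fold for Nop56, 26.0-fold for Fbl and 15.4-fold for Nop58. Nop16 went from 0 in every zygote library to 39.6 and 28.2 FPKM, for which no fold is given. Npm1 fell from 466, 472 and 483 to 262 and 241 FPKM (log2 fold change -0.91 ± 0.10, SE, adjusted p = 9.03e-08), Utp20 fell 1.70-fold and Brix1, a large subunit assembly factor, 1.53-fold. Bms1 and Noc4l, with no call here, were lower under both other scalings. In 31 of the 50 genes the wild-type 2-cell mean was above the 3-week oocyte mean, in 18 of them at least 2-fold, where 43.4% and 26% of all genes tested were. The order of levels changed with it: after Npm1, the highest genes in wild-type 2-cell embryos were Rrp9, Fbl and Nhp2 in place of Bms1, Noc4l and Emg1, although Rrp9 overlapped Fbl in the 2 libraries and Nhp2 overlapped Polr1c, the next in order.

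CFP1 binds unmethylated CpG, so the promoters of 4 genes are shown with each CpG in capitals: the 3 genes with the deepest loss in deletion 2-cell embryos on the log2(FPKM + 1) scale and the one with the largest gain, with values given further on. They are the 250 bases before the annotated start, read 5′ to 3′ on the strand of the gene, from the RefSeq promoter table on GRCm38.p6, and whether the authors mapped the RNA to the same assembly is not given in the sources used here. Rrp9 lies at chr9:106477059-106477308 on the plus strand, Nop2 at chr6:125131633-125131882 on the plus strand, Polr1c at chr17:46248046-46248295 on the minus strand and Bms1 at chr6:118419418-118419667 on the minus strand.
Rrp9: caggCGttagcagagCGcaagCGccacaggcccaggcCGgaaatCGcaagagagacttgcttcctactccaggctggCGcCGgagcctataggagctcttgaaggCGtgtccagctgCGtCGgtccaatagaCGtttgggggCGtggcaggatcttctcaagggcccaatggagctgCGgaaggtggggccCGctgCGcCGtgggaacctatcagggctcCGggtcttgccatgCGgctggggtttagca
Nop2: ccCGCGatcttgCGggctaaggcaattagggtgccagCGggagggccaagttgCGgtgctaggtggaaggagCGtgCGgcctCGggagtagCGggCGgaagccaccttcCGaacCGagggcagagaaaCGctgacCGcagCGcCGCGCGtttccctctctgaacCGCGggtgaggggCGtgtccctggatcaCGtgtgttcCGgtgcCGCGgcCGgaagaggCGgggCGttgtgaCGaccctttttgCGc
Polr1c: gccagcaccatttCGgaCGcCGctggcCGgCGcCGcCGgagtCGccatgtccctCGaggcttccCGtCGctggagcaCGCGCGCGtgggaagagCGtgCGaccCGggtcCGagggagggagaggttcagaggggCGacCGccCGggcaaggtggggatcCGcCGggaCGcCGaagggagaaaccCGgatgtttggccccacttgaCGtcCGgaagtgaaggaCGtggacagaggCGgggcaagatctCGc
Bms1: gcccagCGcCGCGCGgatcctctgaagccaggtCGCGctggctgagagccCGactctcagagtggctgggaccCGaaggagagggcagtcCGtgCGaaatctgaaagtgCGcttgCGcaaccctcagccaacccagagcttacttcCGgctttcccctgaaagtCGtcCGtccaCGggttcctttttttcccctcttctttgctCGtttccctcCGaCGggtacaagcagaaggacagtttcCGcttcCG
These stretches hold 18 CpG in Rrp9, 30 in Nop2, 32 in Polr1c and 21 in Bms1.

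Promoters were found for 44 of the 50 genes, 53 promoters in all, in windows of 300 bases from 250 before to 50 after the start. Ubtf, Wdr12, Noc2l and Rrp1b had more than 1 each, Ubtf the most. The medians and shares below count promoters and not genes, so these genes weigh more. Fbl, Npm1, Utp6, Rrp12, Rrs1 and Bop1 had none in the table. The median CpG count was 21 in the 53 promoters, 19 in the 13194 promoters of tested genes and 7 in all 32851 promoters of the table. By outcome in deletion 2-cell embryos, the median was 21 in 43 promoters of 34 genes that were lower, 21 in 5 promoters of genes that were higher and 30 in 5 promoters of genes with no call. On either strand, the letters CGGAAG, the core of the ETS motif, were in 52.8% of the 53 promoters, in 28.3% of those of tested genes and in 16.9% of all. The E-box CACGTG was in 17% of the 53, 9.82% of tested and 7.15% of all, and one copy lies at -60 from the start of Nop2. The GC box GGGCGG was in 64.2%, 59.3% and 35.7%, the NRF1 core GCATGC in 13.2%, 9.66% and 7.93%, and TATAAA in 3.77%, 7.83% and 13.6%. CpG overlaps the ETS core, the GC box and the E-box, since each contains it. These matches describe letters in the windows, not bound sites.

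In 2-cell embryos from Zp3-Cre deletion mothers, most of the 50 genes were well below wild type. Relative to wild-type 2-cell embryos, 39 of the 50 were lower and 6 were higher, where 29.4% of all genes tested were lower and 37.1% higher. The median log2 fold change was -1.11 over the 50 genes and 0.16 over all genes. The per-library median of the 50 was 43.1 and 35.5 FPKM in wild type against 11.1, 9.83 and 11.97 in the deletion libraries, and the deletion mean was 45.6% of the wild-type mean at the median over the 50 genes. Without deletion library 3, 38 were lower and 6 higher with a median of -1.09, and 32.8% of all genes were lower. Under median-of-ratios scaling 42 were lower and 4 higher, with a median of -1.39, and under quantile normalization 40 and 6, with -1.20. The 8 oocyte markers moved the other way and were higher in 8 of 8 cases, with sums of 1329 to 1658 FPKM against 317 to 346. Of 7 markers of the 2-cell stage 6 were lower, with sums of 30.9 to 37.3 against 184 to 242 FPKM. The part of developmental timing in the result was not tested.

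**Figure D2:**
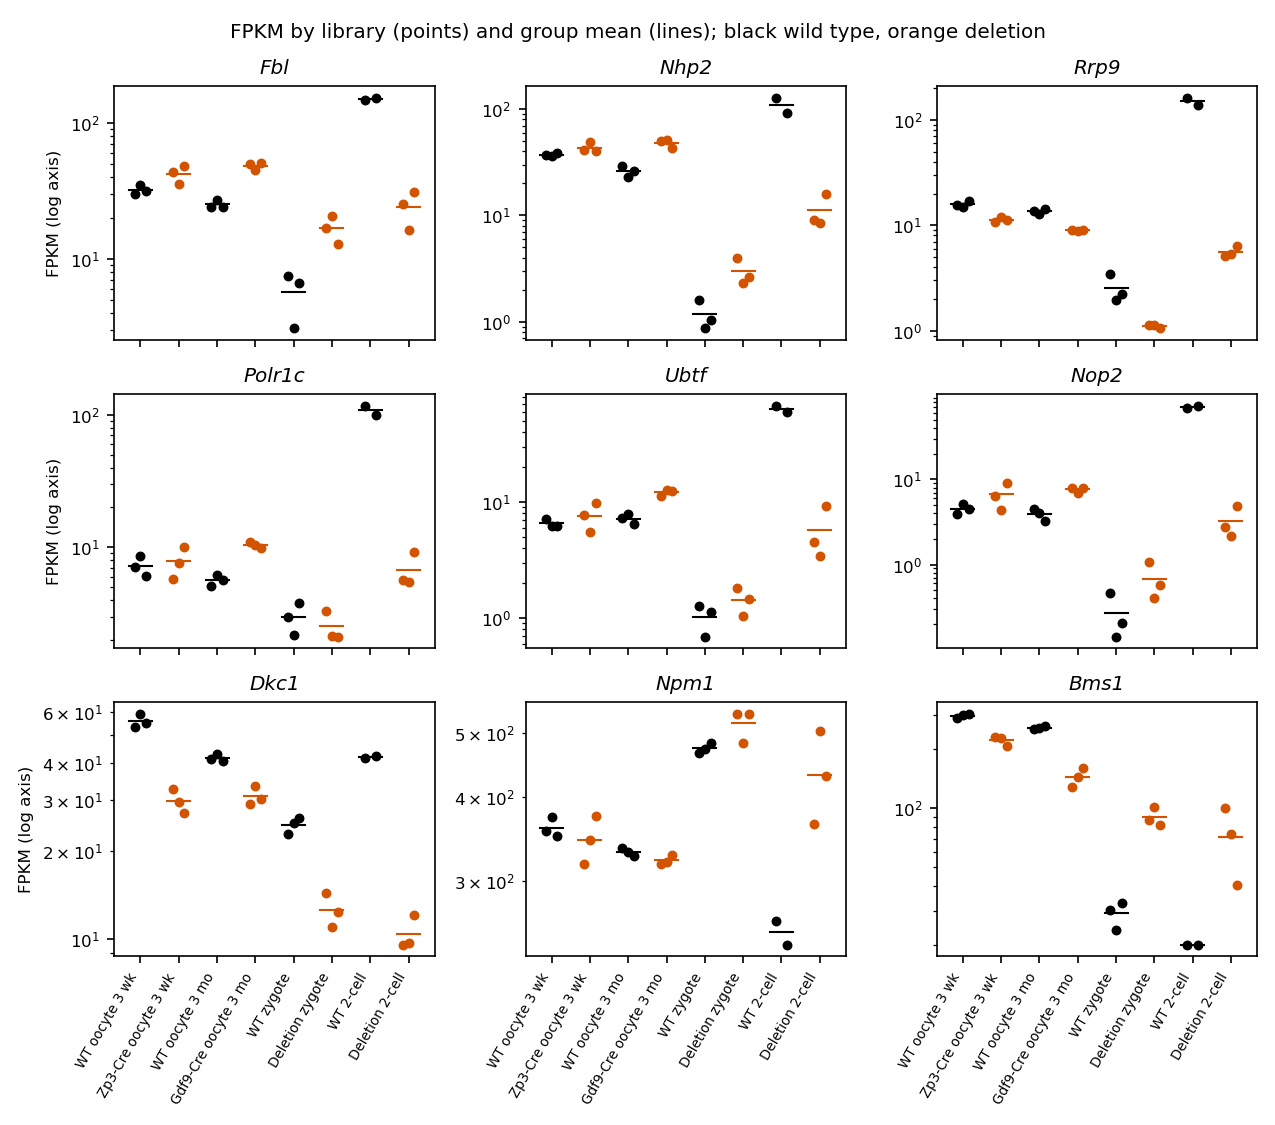
FPKM of 9 of the 50 genes in each library on a log axis, 1 panel per gene, with points for libraries, lines for group means, black for wild type and orange for deletion. Wild-type 2-cell libraries are the highest for Fbl, Nhp2, Rrp9, Polr1c, Ubtf and Nop2 and the lowest for Npm1 and Bms1, and Dkc1 is below wild type in every deletion group.

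All 6 polymerase I genes were lower, and their median log2 fold change was -3.11. Polr1c was at 117 and 99.8 FPKM in wild type against 5.71, 5.46 and 9.25 in the deletion libraries (log2 fold change -3.84 ± 0.22, SE, adjusted p = 1.70e-11). Ubtf was at 67.9 and 60.3 against 4.54, 3.42 and 9.35 FPKM (log2 fold change -3.36 ± 0.26, SE, adjusted p = 8.07e-10). Polr1b was 12.7-fold and Polr1e 11.2-fold lower. The difference was smaller for Rrn3, at 44.9 and 43.5 against 21.95, 17.2 and 16.5 FPKM (log2 fold change -1.22 ± 0.19, SE, adjusted p = 1.26e-05), and for Polr1a, at 11.99 and 12.5 against 7.18, 4.55 and 5.73 FPKM (log2 fold change -0.97 ± 0.16, SE, adjusted p = 1.92e-05). Wild-type and deletion libraries did not overlap for any of the 6, where 29.3% of all genes tested were lower with no overlap.

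The modification particles differed in their counts: all 3 box C/D genes were lower, and 2 of 4 H/ACA genes. Fbl was at 146 and 153 FPKM in wild type against 25.1, 16.4 and 30.8 in the deletion group (log2 fold change -2.63 ± 0.26, SE, adjusted p = 2.48e-08). Nop58 was at 63.8 and 69.0 against 12.6, 11.4 and 18.5 FPKM (log2 fold change -2.18 ± 0.15, SE, adjusted p = 1.66e-10), and Nop56 was 6.15-fold lower. Of the H/ACA genes, Nhp2 was 9.85-fold and Dkc1 4.01-fold lower. The Dkc1 values were 41.7 and 42.2 against 9.59, 9.70 and 12.1 FPKM (adjusted p = 1.98e-11). Nop10, at 51.2 and 35.2 against 26.9, 39.4 and 42.4 FPKM, and Gar1, at 57.1 and 50.9 against 45.6, 52.7 and 45.1 FPKM, overlapped between the groups and did not pass the test (adjusted p = 0.275 and 0.231). Gar1 was lower under both other scalings and Nop10 with median-of-ratios scaling. Whether the 4 subunit genes differed from one another in response was not tested.

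In the small subunit processome 12 of 16 genes were lower, 3 higher and 1 not called, and the median log2 fold change was -0.61 with the widest range of the roles, from -4.52 to 1.69. Rrp9 was at 163 and 138 FPKM in wild type against 5.11, 5.33 and 6.39 in the deletion libraries (log2 fold change -4.52 ± 0.14, SE, adjusted p = 3.99e-15), 26.8-fold lower and the deepest loss among the 50. Nop14 was 4.13-fold lower, Emg1 2.202-fold, Utp3 2.16-fold, Utp15 2.18-fold and Heatr1 2.14-fold. Imp3, Imp4 and Mphosph10 form one complex with the U3 particle, and their genes moved apart. Imp3 was 1.70-fold and Imp4 1.61-fold lower, while Mphosph10 was at 44.6 and 34.8 FPKM in wild type against 88.2, 108 and 79.1 in the deletion group (log2 fold change 1.19 ± 0.12, SE, adjusted p = 4.13e-08). Wdr43, Wdr75, Utp6 and Nat10, the rRNA acetyltransferase, were 1.43-fold to 1.48-fold lower, with overlapping groups for Nat10, whose call was lost without deletion library 3 and with quantile normalization. Noc4l, at 15.1 and 11.4 against 17.6, 10.6 and 13.9 FPKM, did not pass the test although its partner Nop14 did.

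Late small subunit factors and large subunit factors gave the same picture for most members. Nob1 was at 49.2 and 47.7 FPKM in wild type against 3.78, 1.52 and 5.44 in the deletion libraries (log2 fold change -3.53 ± 0.33, SE, adjusted p = 1.14e-08). Rrp12, an export factor, was 9.998-fold lower and Tsr1 3.90-fold, but Pno1 was at 48.7 and 51.2 against 46.7, 61.8 and 49.04 FPKM with no call. Among the 13 large subunit genes 11 were lower and 2 higher. Nop2 was at 69.6 and 73.2 against 2.75, 2.19 and 4.84 FPKM (log2 fold change -4.13 ± 0.25, SE, adjusted p = 2.62e-11). Nop16 was at 39.6 and 28.2 against 1.89, 1.31 and 3.17 FPKM (log2 fold change -3.51 ± 0.24, SE, adjusted p = 1.40e-10). Rrs1 was 9.60-fold and Noc2l 7.83-fold lower, whereas Noc3l, which pairs with Noc2l, was 1.80-fold lower. Pes1, Bop1 and Wdr12 encode one trimeric complex of large subunit processing. Bop1 was 5.20-fold lower, Wdr12 2.82-fold, and Pes1, at 42.5 and 35.6 against 25.6, 22.1 and 21.5 FPKM, 1.69-fold (log2 fold change -0.73 ± 0.09, SE, adjusted p = 5.79e-07). Nip7, Ebna1bp2 and Rrp1b were 2.90-fold, 1.65-fold and 1.80-fold lower. Of the scaffold genes, Mybbp1a and Nolc1, a chaperone of small nucleolar particles, were 8.57-fold and 4.77-fold lower, and Ncl had no call, at 53.7 and 49.6 against 51.7, 48.2 and 51.6 FPKM (adjusted p = 0.729), though it was lower under both other scalings (-0.30 and -0.25).

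The 6 genes that were higher in deletion 2-cell embryos came from 3 roles. Bms1 was at 20.2 and 20.2 FPKM in wild type against 99.8, 74.0 and 40.8 in the deletion libraries (log2 fold change 1.69 ± 0.22, SE, adjusted p = 1.56e-06). Npm1 was at 262 and 241 against 365, 502 and 430.0 FPKM (log2 fold change 0.77 ± 0.10, SE, adjusted p = 1.30e-06). With Mphosph10, these 2 showed no overlap between the groups, where 39.6% of all genes tested were higher with no overlap. Brix1 was 1.65-fold, Utp20 1.62-fold and Ftsj3 1.42-fold higher, also without overlap. Those 3 calls were the weakest: fitted on the 2-cell libraries alone, their adjusted p-values were 0.0647, 0.069 and 0.0708, and with median-of-ratios scaling Brix1 and Ftsj3 lost the call. Wild-type zygotes had carried 4 of the 6 above the wild-type 2-cell level, with 474 ± 8.29 FPKM for Npm1, 29.1 ± 4.70 for Bms1, 52.2 ± 7.16 for Brix1 and 14.4 ± 0.364 for Utp20 (SD, n = 3).

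In zygotes the deletion went with higher rather than lower values. Relative to wild-type zygotes, 28 of the 50 genes were higher and 4 lower in zygotes from deletion mothers, where 35.3% of all genes tested were higher and 11.4% lower. The median log2 fold change was 0.52 over the 50 genes and 0.22 over all. The size depended on the scaling. Under median-of-ratios 18 were higher and 10 lower, with medians of 0.20 over the 50 and -0.038 over all genes. Under quantile normalization it was 19 and 7, with 0.19 and -0.07. The 35.3% and 11.4% come from the fit without further scaling and are no background for these counts. The per-library median was 6.45, 3.76 and 5.25 FPKM in wild-type zygotes and 9.94, 13.9 and 9.28 in deletion zygotes, so the groups did not overlap. The oocyte markers moved in the same direction, 7 of 8 higher, with sums of 2393 to 3049 FPKM against 1309 to 1381, and the part of retained oocyte RNA in the result was not tested.

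In the processome 13 of 16 genes were higher, and 7 under each of the other scalings, which lost Emg1, Imp4, Utp15, Utp20, Wdr43 and Wdr75. Bms1 was at 30.4, 23.9 and 33.1 FPKM in wild type against 87.0, 102 and 81.9 in the deletion group (log2 fold change 1.60 ± 0.20, SE, adjusted p = 1.37e-06). Imp3 was at 16.9, 14.5 and 14.8 against 51.0, 45.7 and 46.4 FPKM (log2 fold change 1.57 ± 0.096, SE, adjusted p = 5.62e-11), and Mphosph10, of the same complex, at 27.2, 27.2 and 28.9 against 89.5, 79.0 and 85.3 FPKM (log2 fold change 1.57 ± 0.11, SE, adjusted p = 3.13e-10). These 3 did not overlap between groups, where 41.1% of all genes tested were higher with no overlap. In large subunit assembly 6 of 13 were higher. Ftsj3 was at 4.02, 3.12 and 2.95 against 20.8, 24.8 and 17.0 FPKM (log2 fold change 2.32 ± 0.13, SE, adjusted p = 1.27e-11), the largest rise among the 50. Ebna1bp2 was 4.24-fold, Noc3l 4.07-fold and Brix1 2.03-fold higher. Pno1, at 16.5, 17.4 and 16.9 against 43.9, 54.0 and 43.7 FPKM, was 2.78-fold higher, and Nop10 3.69-fold. Fbl was at 7.51, 3.08 and 6.62 against 16.8, 20.5 and 12.7 FPKM (log2 fold change 1.44 ± 0.23, SE, adjusted p = 2.89e-05) and Nop58 was 1.75-fold higher, a call lost under both other scalings (0.18 and 0.14). Of the polymerase I genes Polr1a was called, 2.23-fold higher, but not with quantile normalization (adjusted p = 0.0637). The other 5 were not called, and Polr1c was lower under both other scalings (-0.66 and -0.71). Rrs1 varied among deletion zygotes, at 1.63, 18.8 and 2.16 FPKM, and had no call.

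Dkc1, Rrp9, Noc4l and Pes1 were the 4 that were lower in deletion zygotes. Dkc1 was at 22.9, 25.03 and 25.9 FPKM in wild type against 14.4, 11.1 and 12.4 in the deletion group (log2 fold change -0.92 ± 0.10, SE, adjusted p = 2.62e-07). Pes1 was at 29.6, 27.4 and 26.1 against 17.0, 16.5 and 17.7 FPKM (log2 fold change -0.67 ± 0.081, SE, adjusted p = 9.07e-07). Rrp9 was at 3.46, 1.95 and 2.25 against 1.12, 1.14 and 1.05 FPKM (log2 fold change -0.73 ± 0.12, SE, adjusted p = 5.74e-05) and Noc4l was 1.52-fold lower. None of the 4 overlapped between the groups, where 13.9% of all genes tested were lower with no overlap. The calls in zygotes and in 2-cell embryos used different libraries. There were 20 genes that were higher in deletion zygotes and lower in deletion 2-cell embryos, which is 71.4% of the 28 and 51.3% of the 39. For comparison, 78% of all 50 were lower in deletion 2-cell embryos, so the 71.4% was not above that share. The share of all genes tested with this pair of calls, or with the same call at both stages, was not computed. Of the 20, Emg1, Imp4, Nolc1, Nop58, Utp15, Wdr43 and Wdr75 were no longer called higher in zygotes under both other scalings. Nolc1 was called lower there with median-of-ratios scaling (-0.27). Noc2l and Polr1a lost the zygote call with quantile normalization. Utp20, Bms1, Mphosph10, Brix1 and Ftsj3 were higher at both stages, and Dkc1, Rrp9 and Pes1 lower at both. Of the first 5, Utp20, Brix1 and Ftsj3 lost at least 1 of their calls under at least 1 other scaling.

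The rise between the zygote and the 2-cell embryo was compared between genotypes. With maternal deletion 25 of the 50 genes rose and 10 fell, where 32.7% and 17.3% of all genes did, at a median log2 fold change of 0.42 against 0.22 over all genes. Under median-of-ratios scaling 21 rose and 10 fell, under quantile normalization 20 and 10, and without deletion 2-cell library 3 it was 23 and 9, with Ebna1bp2 not called. Of the 44 genes that rose in wild type, 25 also rose in the deletion group, 13 were not called and 6, Dkc1, Wdr75, Utp6, Utp15, Nip7 and Ebna1bp2, fell. The same split was not computed for all genes tested that rose in wild type, so this one has no background. The difference between the 2 changes was tested directly as an interaction. It was lower in the deletion group for 42 of the 50 genes and higher for 2, where 32.4% and 21.5% of all genes tested were, with medians of -1.99 over the 50 and -0.087 over all. Without deletion 2-cell library 3 the counts were also 42 and 2.

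Nop2 showed the largest difference, with a log2 rise of 5.84 in wild type and 1.31 in the deletion group (difference -4.53, adjusted p = 1.08e-09). Mybbp1a rose by 4.70 in wild type and had 0.37, not called, in the deletion group (difference -4.33, adjusted p = 2.44e-10). Nhp2 rose by 5.68 and 1.59 (difference -4.09, adjusted p = 8.90e-10). For Fbl the values were 4.55 and 0.48, the second not called (difference -4.06, adjusted p = 6.75e-09). Nop2 and Fbl encode methyltransferases, Nhp2 a pseudouridylation subunit and Mybbp1a a nucleolar scaffold protein. Rrp9 still rose 5.08-fold in the deletion group, from 1.12, 1.14 and 1.05 to 5.11, 5.33 and 6.39 FPKM, against 59.0-fold in wild type. Npm1 and Noc4l were the 2 with a positive difference, 0.65 and 0.64 (adjusted p = 4.11e-04 and 0.014), and that of Npm1 became -0.05 under quantile normalization. Without wild-type 2-cell library 2, 1 gene had a positive difference. The deletion 2-cell mean lay nearer to the deletion zygote mean than to the wild-type 2-cell mean for 38 of the 50 genes, 76%, where this held for 65.9% of all genes tested, on the log2(FPKM + 1) scale.

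**Figure D3:**
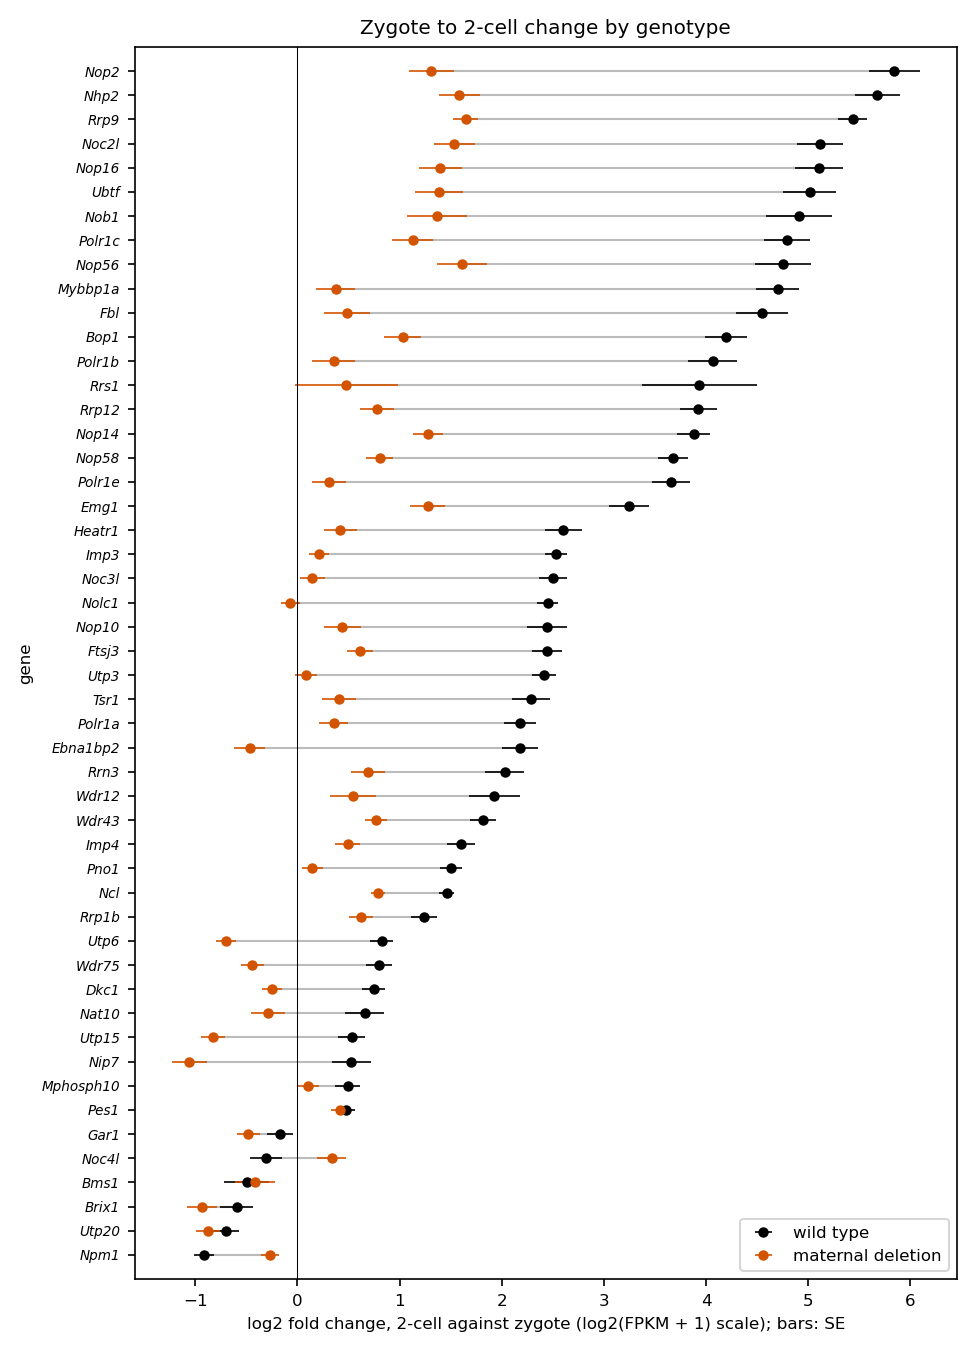
Change from zygote to 2-cell embryo for each of the 50 genes, as log2 fold change on the log2(FPKM + 1) scale with SE bars, wild type in black and maternal deletion in orange, ordered by the wild-type change. The orange points lie left of the black ones for most genes, and the widest gap is that of Nop2, 5.84 against 1.31.

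From the oocyte to the zygote the deletion group fell too, with 37 of the 50 genes lower and 7 higher in zygotes than in GV oocytes of the same genotype, where 43% and 21.9% of all genes were. The median log2 fold change was -1.30 against -0.27 over all genes, 33 and 9 genes were called with median-of-ratios scaling, and 31 and 11 under quantile normalization. The deletion zygote mean was 36.0% of the deletion oocyte mean at the median over the 50 genes. The interaction of stage and deletion was positive for 23 genes and negative for 1, where 22.4% and 7.01% of all genes were. That split was 12 and 6 with median-of-ratios scaling and 13 and 3 with quantile normalization. Bms1 had the largest value, 2.02 (adjusted p = 1.45e-05): its level went from 289, 299 and 302 to 30.4, 23.9 and 33.1 FPKM in wild type, and from 231, 227 and 207 to 87.0, 102 and 81.9 in the deletion group. For Ftsj3 the interaction was 1.93, for Noc3l 1.76 and for Ebna1bp2 1.72. Pes1 had the one negative value, -1.07 (adjusted p = 5.20e-07), and without deletion zygote library 2 there were 2.

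In GV oocytes the effects of deletion were small. In the 3-week Zp3-Cre oocytes 8 of the 50 genes were higher and 4 lower than in wild type, where 18.3% and 11.3% of all genes tested were, so the share was near or below the background. The median log2 fold change was 0.14 over the 50 and 0.093 over all. The split was 2 and 5 with median-of-ratios scaling, 5 and 6 with quantile normalization, and 16 and 9 in a fit of these 2 groups alone. The 18.3% and 11.3% are from the fit of all 23 libraries and cannot be set against the 16 and 9. Dkc1 had the lowest value, at 53.3, 58.9 and 54.9 FPKM in wild type against 32.5, 29.5 and 27.0 with Zp3-Cre (log2 fold change -0.89 ± 0.10, SE, adjusted p = 2.75e-06). Rrp9 was at 15.6, 14.8 and 17.1 against 10.7, 11.9 and 11.2 FPKM (log2 fold change -0.46 ± 0.12, SE, adjusted p = 0.00874), and Noc4l and Rrp1b were 1.35-fold and 1.28-fold lower. Rrs1 was the gene with the largest rise, at 1.48, 1.78 and 1.65 against 7.04, 5.01 and 7.71 FPKM (log2 fold change 1.51 ± 0.50, SE, adjusted p = 0.0293). That call was lost without the filter, under both other scalings and on leaving out any library of the 2 groups except Zp3-Cre library 2, and wild-type oocytes at 3 months were at 7.60, 7.66 and 9.09 FPKM. Bop1 was 1.56-fold higher, Pes1, Imp4, Pno1, Ftsj3, Ncl and Imp3 1.26-fold to 1.33-fold, and of the 8 higher genes Ncl and Pes1 kept the call with median-of-ratios scaling. None of these 12 overlapped between groups, where 32% of all genes tested were higher and 19% lower with no overlap. Leaving out wild-type library 2 or 3 or Zp3-Cre library 3 left 4 or 5 genes higher, and leaving out any wild-type library or Zp3-Cre library 2 or 3 left 2 genes lower. Marker sums differed between these groups without overlap: oocyte markers were at 5729 to 6499 FPKM with Zp3-Cre and 7818 to 7938 in wild type, 2-cell markers at 14.9 to 21.7 and 3.37 to 3.99, 5 oviduct markers at 6.24 to 12.8 and 1.30 to 2.49, and fibroblast markers at 3.58 to 4.54 and 0.399 to 0.606. With Zp3-Cre, Krt8 alone gave 5.66, 4.61 and 10.5 FPKM of the oviduct sum and Dcn 3.35, 4.08 and 3.98 of the fibroblast sum. Of the 8 oocyte markers 3 were lower and 0 higher. The part of the markers in the result was not tested.

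In the 3-month Gdf9-Cre oocytes 20 of the 50 genes were higher and 7 lower than in wild type, where 34.2% and 15.2% of all genes tested were. The median log2 fold change was 0.11 over the 50, below the 0.20 over all genes, and it changed sign to -0.12 with median-of-ratios scaling and to -0.035 with quantile normalization, at 14 higher and 16 lower or 15 and 14. No direction is therefore given for the set as a whole. Nop10 was at 21.8, 19.2 and 25.3 FPKM in wild type against 50.6, 45.7 and 49.5 with Gdf9-Cre (log2 fold change 1.11 ± 0.18, SE, adjusted p = 4.42e-05). Imp3 was at 56.3, 58.8 and 50.04 against 117, 109.7 and 103 FPKM (log2 fold change 0.99 ± 0.096, SE, adjusted p = 1.40e-07). Fbl was at 24.1, 27.1 and 24.2 against 49.5, 44.9 and 50.7 FPKM (log2 fold change 0.92 ± 0.23, SE, adjusted p = 0.00266). Groups did not overlap for these 3 genes, where 46.4% of all genes tested were higher with no overlap. Nob1 was 2.23-fold, Bop1 1.95-fold and Nhp2 1.85-fold higher. Bms1 was lower, at 255, 256 and 261 against 128, 144 and 161 FPKM (log2 fold change -0.84 ± 0.20, SE, adjusted p = 0.00183). Rrn3, Rrp12, Polr1e, Rrp9, Rrp1b and Dkc1 were 1.35-fold to 1.61-fold lower. The summed level of 12 granulosa cell markers, of which 9 were tested and 6 were higher, was 89.5 to 167 FPKM with Gdf9-Cre and 36.8 to 39.6 in wild type, and none of them was at 0 in every library of the group. Oviduct markers summed to 27.3 to 43.2 FPKM against 2.34 to 3.18, 2-cell markers to 30.8 to 40.6 against 3.84 to 4.52, fibroblast markers to 6.42 to 8.18 against 0.345 to 0.932 and oocyte markers to 6242 to 6459 against 7341 to 7564. Single genes made up most of 2 of these sums. With Gdf9-Cre, Krt8 alone gave 41.2, 39.6 and 25.3 FPKM of the oviduct sum and Dcn 7.90, 7.62 and 6.07 of the fibroblast sum. Of the 8 oocyte markers 2 were higher and 3 lower. The part of these markers in the result was not tested.

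The GV models share no libraries. Ncl, Imp3, Imp4, Pno1, Bop1, Pes1 and Ftsj3 were higher in both, 87.5% of the 8 and 35.0% of the 20, and Dkc1, Rrp9 and Rrp1b were lower in both, 75% of the 4 and 42.9% of the 7. Of the 50, 40% were higher and 14% lower with Gdf9-Cre. The share of all genes tested with the same call in both models was not computed, so these overlaps have no background. Under both other scalings Ncl lost its call with Gdf9-Cre, and Imp4 and Ftsj3 theirs with Zp3-Cre. With median-of-ratios scaling Imp3, Pno1 and Bop1 also lost theirs with Zp3-Cre. Rrp1b lost its Zp3-Cre call on leaving out any 3-week oocyte library except Zp3-Cre library 1. No gene was called in opposite directions. Dkc1 and Rrp9 were thus below wild type in all 4 deletion comparisons, by log2 fold changes of -0.89, -0.42, -0.92 and -1.91 for Dkc1 and -0.46, -0.56, -0.73 and -4.52 for Rrp9, in the order 3-week oocyte, 3-month oocyte, zygote and 2-cell embryo. The models differed by test for 3 genes, where 3.2% of all genes had a larger value with Gdf9-Cre and 1.68% a smaller one: Nop16 by 1.05, Nop10 by 0.92 and Imp3 by 0.65 (adjusted p = 0.0497, 0.0401 and 0.0105). Leaving out any 1 of the libraries of these 4 groups left 1 or 2 of the 3, and with median-of-ratios scaling Imp3 alone was called. Age, driver and deletion cannot be told apart there. Between wild-type oocytes at 3 weeks and 3 months 0 genes were higher and 3 were lower at 3 months, where 2.25% and 1.7% of all genes were. Nop10 was at 43.2, 28.2 and 35.1 and 21.8, 19.2 and 25.3 FPKM (log2 fold change -0.65 ± 0.18, SE, adjusted p = 0.0459), Dkc1 at 55.7 ± 2.92 and 41.6 ± 1.27, and Utp3 at 34.9 ± 3.46 and 26.4 ± 1.44 (SD, n = 3, adjusted p = 0.0254 and 0.0462). Leaving out any 1 library of either group left 0 or 1 of these calls, whereas a fit of these 2 groups alone gave 3 higher and 14 lower. That fit has its own estimate of the spread. The 2.25% and 1.7% come from the fit of all 23 libraries and are no background for its counts. Without regard to a test, 5 of the 50 were higher and 20 lower with no overlap, where 18.2% and 20% of all genes tested were.

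**Figure D4:**
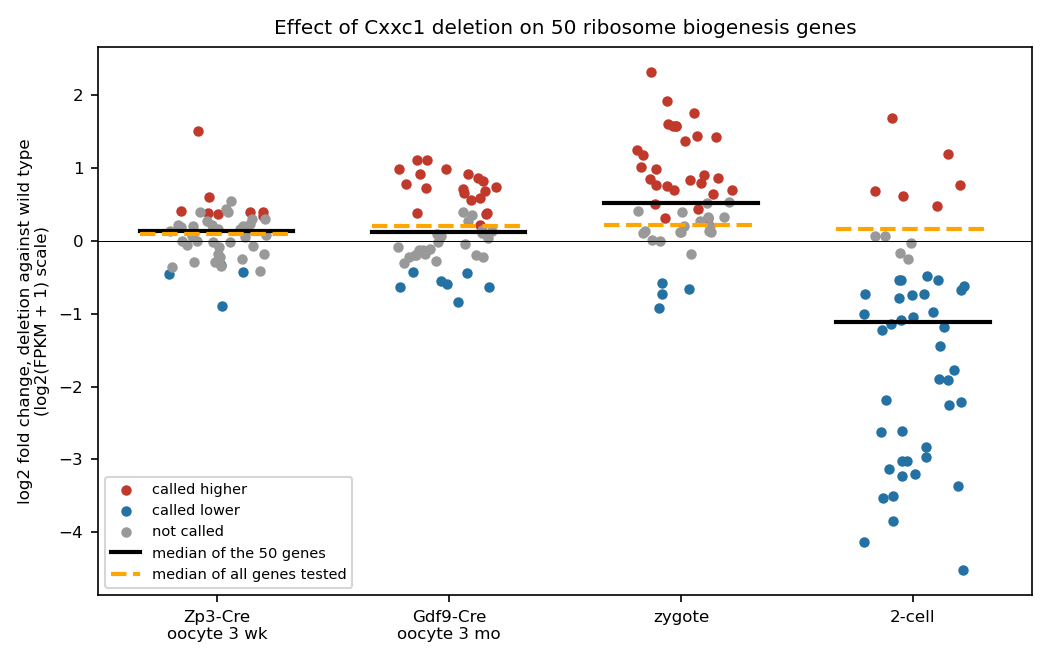
Deletion effect on each of the 50 genes in the 4 comparisons with wild type, as log2 fold change on the log2(FPKM + 1) scale, 1 point per gene, red for called higher, blue for called lower and grey for not called, with the median of the 50 genes in black and of all genes tested in dashed orange. Values stay within -0.89 to 1.51 in 3-week oocytes and spread from -4.52 to 1.69 in 2-cell embryos.

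Another 120 genes of ribosome biogenesis, chosen by annotation knowledge and not among the 50, were read from the same fits. In deletion 2-cell embryos 85 of the 120 were lower and 14 higher, where 29.4% and 37.1% of all genes tested were, with a median of -1.21, and from the wild-type zygote to the wild-type 2-cell embryo 96 rose and 15 fell, where 44.5% and 24% of all genes did, with a median of 2.68. In deletion zygotes 59, or 49.2%, were higher and 8 lower, against 35.3% higher and 11.4% lower of all genes. In oocytes the share higher was near that of all genes. It was 46 genes or 38.3% against 34.2% at 3 months, and 24 genes or 20% against 18.3% at 3 weeks. The share lower was 8 genes or 6.67% against 15.2% at 3 months, and 5 genes or 4.17% against 11.3% at 3 weeks. The 120 genes were not counted under the other scalings, on which the zygote and oocyte counts of the 50 depended. Mak16, a large subunit factor, went from 51.1 ± 1.02 to 2.77 ± 2.04 FPKM between wild-type and deletion 2-cell embryos (log2 fold change -3.92 ± 0.28, SE, adjusted p = 2.35e-10), and Pdcd11, a processome scaffold, from 35.5 ± 0.981 to 1.88 ± 1.18 FPKM (log2 fold change -3.74 ± 0.20, SE, adjusted p = 6.71e-12). In the opposite direction Riok1, a kinase of late small subunit maturation, went from 21.2 ± 1.58 to 119 ± 37.7 FPKM (log2 fold change 2.38 ± 0.17, SE, adjusted p = 4.09e-10), and Sbds, which helps release the last large subunit block, from 28.0 ± 4.45 to 104 ± 33.4 FPKM (log2 fold change 1.80 ± 0.18, SE, adjusted p = 3.40e-08). In deletion zygotes Rsl24d1 went from 2.89 ± 0.932 to 35.3 ± 9.48 FPKM and Polr2l, a subunit shared by the polymerases, from 3.42 ± 0.895 to 30.05 ± 2.09 FPKM. Mphosph6, an exosome cofactor, went the other way, from 2196 ± 47.6 to 1214 ± 51.8 FPKM, and Trmt112, a methyltransferase partner, from 104 ± 10.4 to 65.5 ± 7.42 FPKM. In both GV models Ddx47, a processome helicase, was lower, at log2 fold changes of -1.25 and -0.92, and Znhit3, an assembly factor of box C/D particles, higher, at 1.00 and 1.74. The share that was lower at the 2-cell stage was thus 70.8% of the related genes and 78% of the 50.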

How the data were processed

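RNA sequencing of mouse oocytes and embryos gave 23 libraries. Per the labels' protocols, the RNA was harvested with an RNeasy micro kit and the library kit was NEBNext Ultra. The authors deposited FPKM per gene in 1 table with a column for each library, and 0 value columns lacked a sample. The submitters' processing notes name TopHat2 2.0.12, Cufflinks 2.2.1, SAMtools and CASAVA 1.4 among their tools, and give mm10 and mm9 without a role. The sources used here do not state strand or poly(A) selection, so reads of overlapping or antisense genes could not be separated. Bisulfite data were not analysed here.

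Values were tested as log2(FPKM + 1), computed here from the deposited FPKM, for the 13776 of 24506 entries with at least 1 FPKM in at least 2 libraries. The fit used limma 3.58.1 (R 4.3.3) with a mean-variance trend, 8 group means, all 23 libraries and 15 residual degrees of freedom. Each of 12 comparisons was Benjamini-Hochberg adjusted over all 13776 genes. The scripts were tested on simulated data. The 50 genes, the related genes and the marker lists were chosen with earlier results of these data known. Genes given in full were 14 genes set by role, plus the called genes with the largest changes in each comparison and a mean of at least 5 FPKM in either group. Other genes named complete a role and were chosen after their values were seen. Alternatives were a pseudocount of 0.1, no filter, median-of-ratios scaling, quantile normalization and a replicate block. Others were a fit of only the groups compared, and leaving out in turn each library of those groups. Deletion 2-cell library 3 was also left out of the fit for every comparison. FPKM gives no depth, so no counting interval is possible, and an exact 0 can be a failed estimate.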

Additional observations from a re-analysis of the deposited data

Results flagged for a closer look

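Effects of deletion that differed between stages or models by a direct test are listed here with their values. Between zygotes and 3-week oocytes the deletion effect was larger in zygotes for 23 of the 50 genes and smaller for 1, where 22.4% and 7.01% of all genes tested differed in this way. The counts were 12 and 6 with median-of-ratios scaling and 13 and 3 with quantile normalization. The differences in log2 fold change were 2.02 for Bms1, 1.93 for Ftsj3, 1.76 for Noc3l, 1.72 for Ebna1bp2 and -1.07 for Pes1.

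Between 2-cell embryos and zygotes the effect was lower in 2-cell embryos for 42 genes and higher for 2, where 32.4% and 21.5% of all genes tested were. It differed by -4.53 for Nop2, -4.33 for Mybbp1a, -4.09 for Nhp2 and -4.06 for Fbl, and by 0.65 for Npm1 and 0.64 for Noc4l.

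Between the 3-month Gdf9-Cre and the 3-week Zp3-Cre oocytes the effect was larger in the former for 3 genes, where 3.2% of all genes tested were, by 1.05 for Nop16, 0.92 for Nop10 and 0.65 for Imp3. Female age differs between those models as well as the Cre driver.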

How the results depend on the processing

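Over all results and alternatives, 2967 of 3304 recomputed values were counted as unchanged, medians and shares over all genes tested included. A count or share had to stay within 1.5 times, and a median within 0.257 on the log2 scale. A single gene had to keep its side of the threshold, and also its direction if either fit passed. A change of sign in a gene with no call, or in a small median, thus still counted as unchanged. With a pseudocount of 0.1, 1 gene was higher with age, 2 had a smaller deletion effect in zygotes than in oocytes, and 1 differed between the GV models. Without the filter, 1 gene was lower with age and 1 differed between the models. Under median-of-ratios scaling, 2 genes were higher with Zp3-Cre in oocytes, 16 were lower with Gdf9-Cre, 18 were higher and 10 lower in deletion zygotes, 1 was lower with age, 7 rose from wild-type oocyte to zygote, 6 fell from wild-type zygote to 2-cell embryo, 12 had a larger and 6 a smaller deletion effect in zygotes than in oocytes, and 1 differed between the models. Under quantile normalization these were 5 higher with Zp3-Cre, 14 lower with Gdf9-Cre, 7 lower in deletion zygotes, 7 risen from wild-type oocyte to zygote, 11 in the deletion group, 5 fallen from wild-type zygote to 2-cell embryo, and 13 larger and 3 smaller in zygotes than in oocytes. With only the groups compared, 16 were higher and 9 lower with Zp3-Cre, 11 lower with Gdf9-Cre, 3 higher in deletion 2-cell embryos, 3 higher and 14 lower with age, 6 fallen from deletion zygote to 2-cell embryo, 1 with a larger effect in 2-cell embryos than in zygotes, and 11 larger and 4 smaller with Gdf9-Cre than with Zp3-Cre. The cause was not tested.

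Among the genes given in full, some turned direction. Under median-of-ratios scaling, Ncl became -0.034 with Gdf9-Cre, Npm1 -0.48 and Rrn3 -0.45 in deletion zygotes, and Utp20 0.55 and Pes1 0.0092 from wild-type oocyte to zygote. Under quantile normalization, Utp20 became 0.59 and Rrn3 0.12 in that last comparison, Rrn3 0.21 in its deletion counterpart, and Npm1 -0.051 in the test of 2-cell embryos against zygotes. Of the other genes, Nolc1 went from called higher to called lower in deletion zygotes with median-of-ratios scaling (-0.27, adjusted p = 0.0215). Tsr1 went from called lower to called higher between wild-type oocyte and zygote with quantile normalization (0.55). Further genes changed sign and lost their call, among them Imp4, Utp15 and Wdr43 in deletion zygotes with median-of-ratios scaling. Scaling by median-of-ratios moved the median of all genes from 0.22 to -0.04 in deletion zygotes, from 0.20 to 0.03 with Gdf9-Cre, from 0.16 to -0.03 in deletion 2-cell embryos and from -0.47 to -0.05 between wild-type oocytes and zygotes.

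For each comparison, the libraries of the groups compared were left out in turn. This gave 4 to 8 genes higher and 2 to 4 lower with Zp3-Cre in oocytes, and 0 to 1 lower with age. It gave 1 to 2 with a smaller deletion effect in zygotes than in oocytes. A larger effect in 2-cell embryos than in zygotes was called for 1 to 2 genes, and 1 to 2 differed between the GV models. In deletion 2-cell embryos it gave 37 to 39 lower and 5 to 6 higher. Because all groups share 1 estimate of the spread, leaving out deletion 2-cell library 3 also moved counts of comparisons without it. For example, 32 genes were then higher in deletion zygotes and 22 with Gdf9-Cre. With Zp3-Cre in oocytes 9 were higher and 5 lower, with age 1 was higher and 3 lower, and 5 differed between the GV models.

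Same-numbered libraries did not pair: the correlation of their deviations from the group means was between -0.0689 and 0.0576 over 11 pairs. With the replicate block, 1 gene was lower with age in place of 3, 1 differed between the GV models in place of 3, and 39 were lower and 6 higher in deletion 2-cell embryos, as without the block. Depth is unknown, so for genes near 0 FPKM in wild-type zygotes, such as Nop16, folds into the 2-cell stage have no stated precision, and with 2 or 3 libraries a group small differences could not be resolved.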

Other observations

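The 44 genes with a promoter in the RefSeq table were also divided by the E-box letters CACGTG, a division made after earlier results were known and given here as values with no test. The 9 genes with an E-box had a median log2 fold change of -0.73 in deletion 2-cell embryos, with 7 lower and 1 higher. The 35 genes without one had a median of -1.09, with 27 lower and 4 higher. From the wild-type zygote to the wild-type 2-cell embryo the medians were 1.82 and 2.44, and in deletion zygotes they were 0.43 and 0.64.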
